A study of Mus musculus with 11 samples.

Results

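Hemogenic endothelium (HE) and pre-hematopoietic stem cells (pre-HSCs) of the mouse embryo were compared across the 13525 genes that reached 1 FPKM in at least 2 of their 5 libraries, out of 37820 gene IDs measured (35.8%). FPKM, the deposited unit, is fragments scaled by transcript length and by the mapped fragments of the library. Poly(A) RNA was sequenced from 11 libraries of 5 sorted populations along the ontogeny of HSCs. Of these libraries 3 are pre-HSC and 2 are HE. The rest hold arterial endothelial cells without Runx1 GFP (Endo, labelled embryonic day 10.5) and HSCs sorted from fetal liver (labelled day 14.5) or marrow. By the study's methods the marrow came from adult mice. The pre-HSCs were CD31+ CD144+ ESAM+ c-Kit+ cells of the aorta-gonad-mesonephros region and of the vitelline and umbilical arteries that carried GFP from a Ly6a transgene (B6.Cg-Tg(Ly6a-GFP)G5Dzk/J sires). The HE cells were CD31+ CD45- CD41- cells, low or negative for c-Kit, that carried GFP from the endogenous Runx1 locus (Runx1tm4Dow sires). Both came from pooled embryos labelled as strain B6129SF1 and embryonic day 10.5. The study's methods instead name B6C3F1 dams for both populations and give a later day for pre-HSCs. By the methods the dams of the pre-HSC embryos were also young females given gonadotropins to superovulate, a treatment that is not described for HE. CD45 and CD41 were gated out of HE and were not part of the pre-HSC gate. Between pre-HSCs and HE, population, reporter, sort and, by the methods, day and dam treatment differ together and cannot be told apart. The p-values measure only the spread between libraries of the same population, which the study calls biological replicates. That spread was estimated from all 11 libraries, including those of the populations not compared.

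HE is a small set of endothelial cells in the walls of the large embryonic arteries. By the endothelial-to-hematopoietic transition these cells round up, join clusters in the vessel lumen and become blood progenitors, among them pre-HSCs, the immature precursors of HSCs. RUNX1 is required for this step, and its targets GFI1 and PU.1 take part in silencing endothelial genes and in opening blood genes.

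Of the 13525 members, 11520 reached 1 FPKM in at least 2 libraries of both populations, 1290 did so in pre-HSCs only, 511 in HE only, and 204 had 1 library of each. The genes nearest the filter were Prss41, just inside with a second highest value of 1.00027 FPKM, and C1qtnf1, just outside at 0.999993 FPKM. Pearson's r of log2(FPKM + 1) over 14708 tested genes was 0.958 to 0.968 between pre-HSC libraries, 0.971 between the HE libraries and 0.893 to 0.924 between the populations, across genes that are not independent. Depth is unknown, since FPKM keeps no read counts. In these bulk libraries, fewer cells of a type and less RNA per cell cannot be told apart.

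Differences were fitted with limma on log2(FPKM + 1), and each log2 fold change, pre-HSC over HE, is given as its value ± SE with limma's adjusted p over all tested genes. It understates the change of low genes. A gene was called when the adjusted p was under 0.01 in an F test over 5 populations and under 0.05 between pre-HSCs and HE, with at least a 2-fold change. Among the 14708 tested genes 1026 were called higher in pre-HSCs (6.98%) and 639 lower (4.34%), and among the members 1023 and 634. The sizes were uneven, with 99 members called higher by 8-fold or more, against 26 called lower by that much. Some of these falls are pseudogenes such as Rps2-ps13 and Gm13394, whose counting is uncertain. Every pre-HSC library was above every HE library in 34.3% of tested genes and below in 26.4%, which is the background for any statement that the libraries did not overlap. The median log2 fold change over the tested genes was 0.09, and higher calls were 61.6% of all calls. Quantile normalization moved the median by -0.11 and the higher share to 49.1%. Equal totals moved the median by 0.13 and the higher share to 73.4%.

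**Figure D1:**
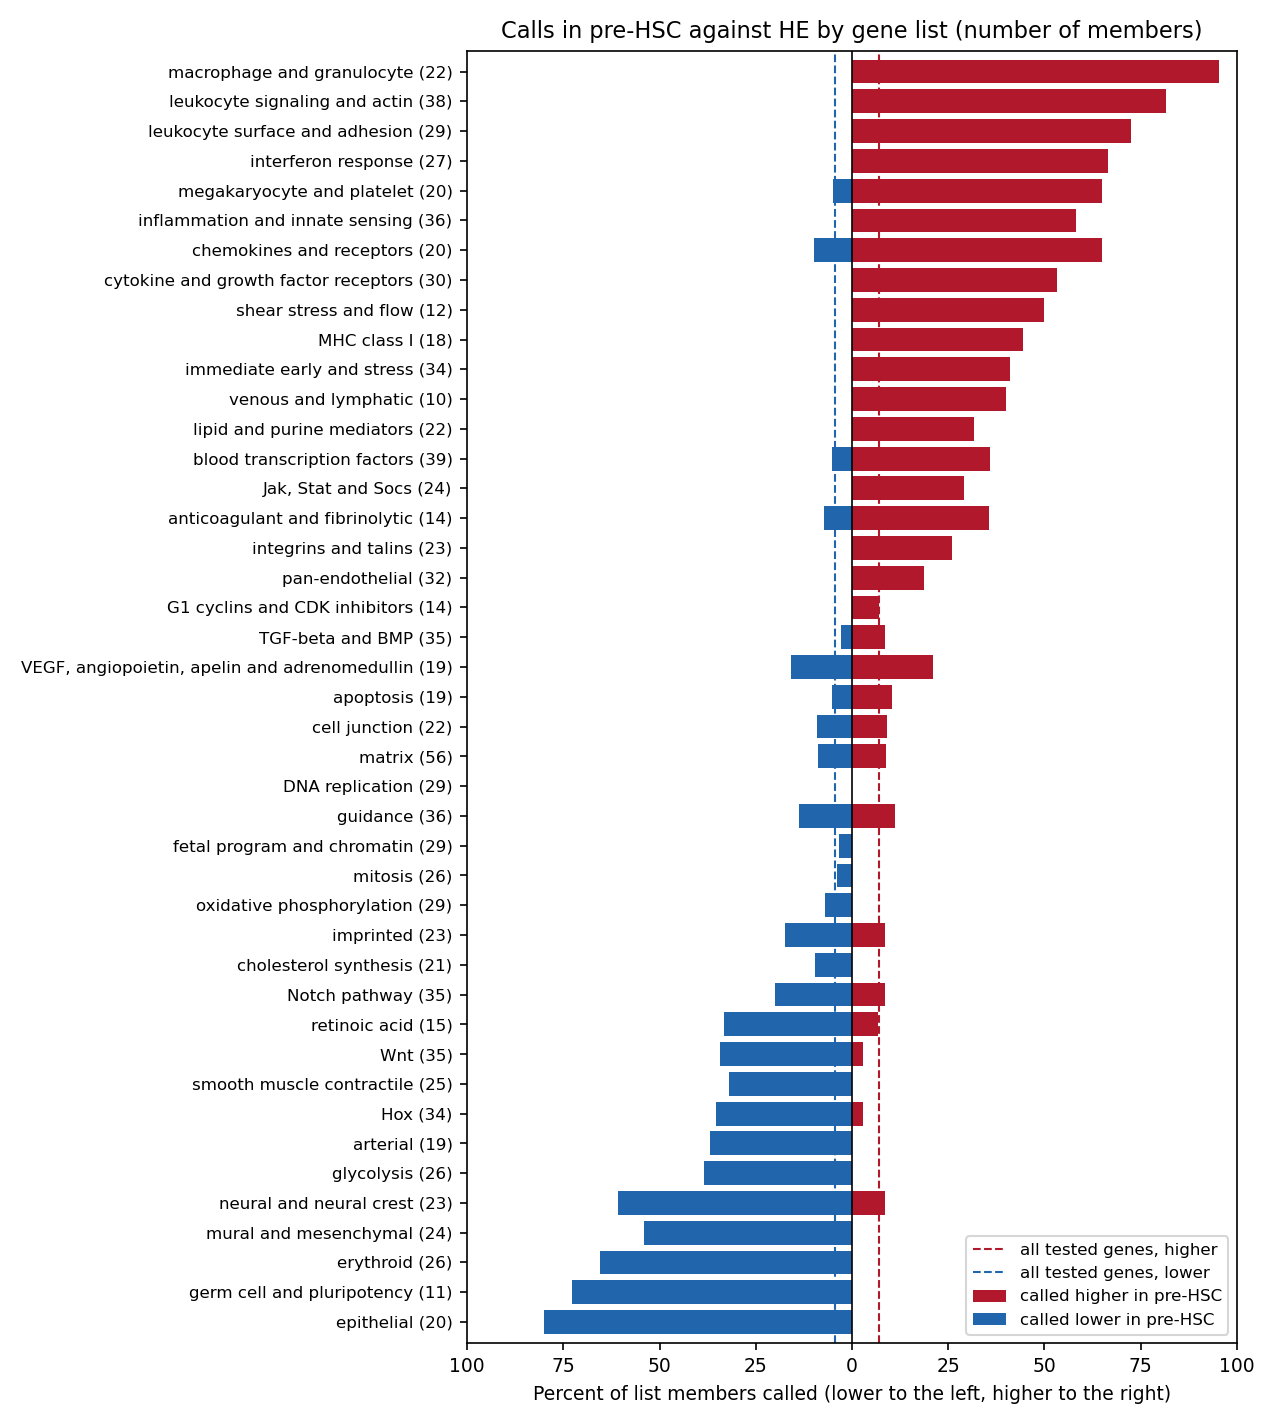
Share of each list's members called higher (red, to the right) or lower (blue, to the left) in pre-HSCs than in HE, with the number of members in parentheses and dashed lines at 6.98% and 4.34%, the shares over all tested genes. The macrophage and granulocyte list is at the top with 95.5% called higher, and the epithelial list at the bottom with 80.0% called lower.

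The transcripts behind the sorts were examined first, as descriptions, because the gates chose the cells by their products. Ly6a, whose promoter drove the pre-HSC reporter, was at 6.83, 7.09 and 3.57 FPKM in pre-HSCs, against 0.0485 and 0.484 FPKM in HE. Kit, the stem cell factor receptor, was at 34.2, 39.2 and 33.2 FPKM in pre-HSCs, against 8.79 and 10.8 FPKM in HE. Runx1 (chr16:92601712-92826311, mm9), whose locus drove the HE reporter, was at 12.6, 13.1 and 16.1 FPKM in pre-HSCs, against 3.74 and 3.13 FPKM in HE. Pre-HSCs, which were not sorted on Runx1, held more of its transcript than the cells that were. Pecam1 (CD31), Cdh5 (CD144) and Esam were not called, at log2 fold changes of 0.54, 0.62 and -0.05. Itga2b, which encodes the CD41 integrin chain gated out of HE, was not called either, at 7.12, 10.6 and 9.56 FPKM in pre-HSCs, against 5.99 and 6.80 FPKM in HE (log2 fold change 0.43). Ptprc (chr1:139959438-140071882, mm9), which encodes CD45, was at 9.75, 7.97 and 13.2 FPKM in pre-HSCs, against 0.0591 and 0.0969 FPKM in HE.

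Transcription factors of blood formed the next group, of which 14 of 39 members were called higher and 2 lower, with a median log2 fold change of 0.85. Myb (chr10:20844736-20880790, mm9), required for definitive hematopoiesis, was at 16.9, 22.1 and 14.6 FPKM in pre-HSCs, against 0.324 and 1.41 FPKM in HE (log2 fold change 3.38 ± 0.25, limma adjusted p = 6.5e-05). Hlf, a marker and regulator of HSCs, was at 7.45, 10.1 and 5.95 FPKM in pre-HSCs, against 0.409 and 0.584 FPKM in HE (log2 fold change 2.54 ± 0.24, limma adjusted p = 0.00017). Ikzf1, the lymphoid regulator Ikaros, was at 13.9, 13.7 and 14.0 FPKM in pre-HSCs, against 0.767 and 3.50 FPKM in HE (log2 fold change 2.40 ± 0.33, limma adjusted p = 0.0013). Every pre-HSC library lay above both HE libraries for these 3 genes, and pre-HSC replicate 2 was the highest for Myb and Hlf. Elf1, an ETS factor of blood and endothelium, rose too (log2 fold change 2.07 ± 0.14, limma adjusted p = 5.5e-05). So did Runx1 (log2 fold change 1.75 ± 0.16, limma adjusted p = 0.00016) and the megakaryocyte and erythroid factor Nfe2 (log2 fold change 1.56 ± 0.20, limma adjusted p = 0.00095).

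Several other regulators of endothelium and early progenitors were not called. Gata2 had a log2 fold change of 0.85, Fli1 0.83, Erg 0.90, Mecom 0.97, Lyl1 0.63, Tal1 0.51, Meis1 0.39 and Lmo2 0.10. Gfi1, a repressor downstream of RUNX1, was at 11.3, 24.2 and 13.8 FPKM in pre-HSCs, against 9.42 and 4.21 FPKM in HE. Its pre-HSC libraries were all above its HE libraries, replicate 2 the highest, and it was not called (log2 fold change 1.17 ± 0.45, limma adjusted p = 0.079). Gata1 and Klf1, the erythroid regulators, were the 2 genes of the list called lower. Gata1 (log2 fold change -1.31 ± 0.31, limma adjusted p = 0.013) lost its call without HE replicate 2 (log2 fold change -1.03, limma adjusted p = 0.088). Sp3, a GC-box factor that the study examined, was at 28.4, 28.1 and 22.5 FPKM in pre-HSCs, against 9.79 and 16.0 FPKM in HE (log2 fold change 1.004 ± 0.23, limma adjusted p = 0.012). Its call, at the edge of the 2-fold threshold, was lost without HE replicate 1 (log2 fold change 0.68, limma adjusted p = 0.13), without pre-HSC replicate 1 (log2 fold change 0.95, limma adjusted p = 0.041) or without pre-HSC replicate 2 (log2 fold change 0.95, limma adjusted p = 0.037). Maz, the further factor that it examined, was not called, at a log2 fold change of -0.46.

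Most leukocyte surface and signaling genes rose. Of 38 members of the leukocyte signaling and actin list, 31 were called higher and none lower, at a median log2 fold change of 2.35, and leaving out 1 library gave 29 to 33. Dock2 (chr11:34126815-34597394, mm9), a Rac activator of leukocyte migration, was at 8.69, 8.08 and 11.6 FPKM in pre-HSCs, against 0.213 and 0.307 FPKM in HE (log2 fold change 3.04 ± 0.22, limma adjusted p = 6.1e-05). Rac2, the blood-restricted Rac GTPase, was at 24.7, 17.1 and 43.0 FPKM in pre-HSCs, against 0.697 and 0.508 FPKM in HE (log2 fold change 4.10 ± 0.30, limma adjusted p = 6.5e-05). Coro1a, an actin regulator of leukocytes, was at 128, 108 and 231 FPKM in pre-HSCs, against 12.9 and 11.1 FPKM in HE (log2 fold change 3.52 ± 0.28, limma adjusted p = 8.2e-05). No library of one population overlapped the other for these 3 genes, and pre-HSC replicate 3 was the highest in each. The Vav1 exchange factor (3.22), the Btk and Sykb kinases (2.84 and 1.14), the phosphatase Ptpn6 (2.47) and the adaptors Lcp2 (2.51) and Sla (3.07) rose with them on the log2 scale.

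Of 29 members of the leukocyte surface and adhesion list, 21 were called higher, at a median of 2.02. Spn (chr7:134275746-134281337, mm9), which encodes CD43, was at 9.08, 11.5 and 9.01 FPKM in pre-HSCs, against 0.819 and 0.579 FPKM in HE (log2 fold change 2.67 ± 0.18, limma adjusted p = 4.9e-05). Procr, the endothelial protein C receptor that marks HSCs, was at 104, 138 and 120.2 FPKM in pre-HSCs, against 33.2 and 24.9 FPKM in HE (log2 fold change 2.02 ± 0.19, limma adjusted p = 0.0002). Gpr56, an adhesion receptor of HSCs, was at 53.5, 77.4 and 60.3 FPKM in pre-HSCs, against 13.4 and 12.7 FPKM in HE (log2 fold change 2.19 ± 0.18, limma adjusted p = 8.7e-05). Selplg, the selectin ligand, and Itga4, the VLA-4 chain, rose with log2 fold changes of 2.42 and 1.42. Neurl3, an E3 ligase gene that is not on this list and that marks HSC-primed HE, was at 24.4, 32.9 and 36.7 FPKM in pre-HSCs, against 4.30 and 3.99 FPKM in HE (log2 fold change 2.63 ± 0.18, limma adjusted p = 4.9e-05). Of 13 genes that the study names from these libraries 8 were called higher and 3 lower, and since they were chosen on the same libraries this is not independent evidence.

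**Figure D2:**
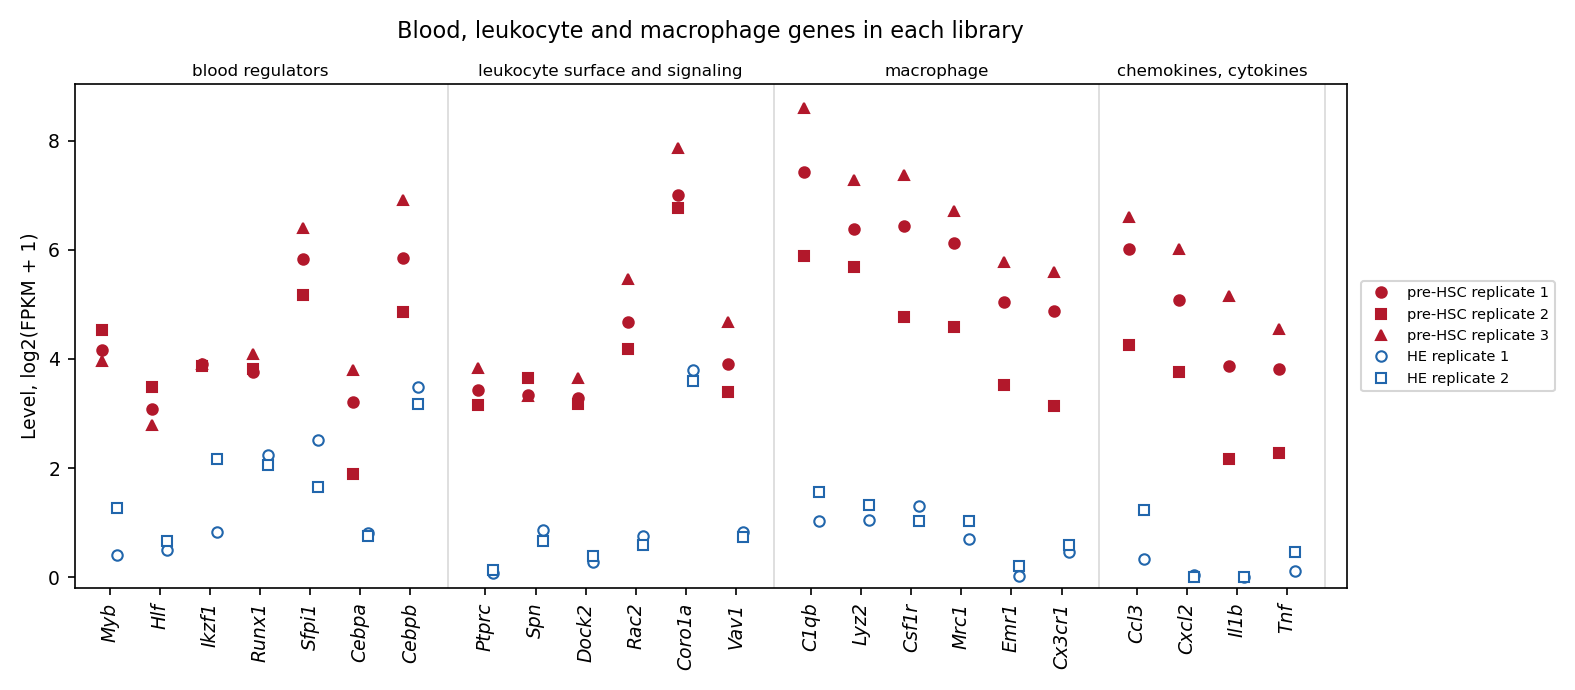
Level of blood, leukocyte, macrophage and chemokine genes as log2(FPKM + 1) in each library, pre-HSC replicates 1 to 3 as filled red symbols left of HE replicates 1 and 2 as open blue symbols. The pre-HSC symbols lie close together for Myb, Ikzf1, Spn and Dock2, and spread in the order replicate 3, 1, 2 for C1qb (389, 171 and 58.2 FPKM).

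Receptors for cytokines and growth factors were called higher in 16 of 30 cases and lower in none. Flt3, the FLT3 ligand receptor, was at 2.68, 3.70 and 3.10 FPKM in pre-HSCs, against 0.253 and 0.103 FPKM in HE (log2 fold change 1.82 ± 0.21, limma adjusted p = 0.00046). Csf3r, the G-CSF receptor, was at 9.18, 8.26 and 12.7 FPKM in pre-HSCs, against 1.43 and 1.16 FPKM in HE (log2 fold change 2.25 ± 0.21, limma adjusted p = 0.00016). Il17ra, Il6ra, Tnfrsf1b and Tgfbr2 rose with log2 fold changes of 2.15, 2.23, 2.75 and 1.32, whereas Il6st, the shared IL-6 family chain, was at 0.62 and the erythropoietin receptor Epor at -0.47, both not called. Behind the receptors, 7 of 24 Jak, Stat and Socs genes were called higher, among them the signal transducer Stat3 (1.27), and the count was 4 with quantile normalization and 11 with equal totals. Socs3, the feedback inhibitor of gp130 receptors, was at 43.9, 54.6 and 56.2 FPKM in pre-HSCs, against 5.29 and 5.90 FPKM in HE (log2 fold change 2.99 ± 0.36, limma adjusted p = 0.00059).

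Megakaryocyte and platelet genes were called higher in 13 of 20 cases and lower in 1. Pf4, a platelet chemokine, was at 129, 68.6 and 245 FPKM in pre-HSCs, against 3.12 and 16.3 FPKM in HE (log2 fold change 3.95 ± 0.68, limma adjusted p = 0.0033), with pre-HSC replicate 3 the highest. Gp9, a chain of the von Willebrand factor receptor, was at 4.51, 5.64 and 4.30 FPKM in pre-HSCs, against 0.886 and 1.13 FPKM in HE (log2 fold change 1.53 ± 0.24, limma adjusted p = 0.0022), and P2rx1, an ATP-gated channel of platelets, rose too (log2 fold change 1.67 ± 0.20, limma adjusted p = 0.00054). The gene of the list called lower was Clec1b, the podoplanin receptor, at 21.9, 30.1 and 26.3 FPKM in pre-HSCs, against 67.5 and 68.6 FPKM in HE (log2 fold change -1.36 ± 0.25, limma adjusted p = 0.0045). The receptor chains Gp1ba (0.69) and Gp1bb (0.05) were not called.

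Macrophage genes held the largest rises after the small nucleolar RNA Snora28 (log2 fold change 6.09), whose call was lost without HE replicate 1 (log2 fold change 6.09, limma adjusted p = 0.099) or HE replicate 2 (log2 fold change 6.09, limma adjusted p = 0.062). Of the 22 members of the macrophage and granulocyte list 21 were called higher and none lower, at a median log2 fold change of 4.32 against 0.09 over all members. C1qb (chr4:136436044-136442102, mm9), a complement chain made by macrophages, was at 171, 58.2 and 389 FPKM in pre-HSCs, against 1.04 and 1.95 FPKM in HE (log2 fold change 6.01 ± 0.88, limma adjusted p = 0.0016). Csf1r, the macrophage growth factor receptor, was at 85.8, 26.3 and 164 FPKM in pre-HSCs, against 1.46 and 1.04 FPKM in HE (log2 fold change 5.03 ± 0.78, limma adjusted p = 0.0021). Mrc1, the mannose receptor, was at 68.8, 22.9 and 104 FPKM in pre-HSCs, against 0.618 and 1.05 FPKM in HE (log2 fold change 4.94 ± 0.55, limma adjusted p = 0.0004). Pre-HSC replicate 3 was the highest and replicate 2 the lowest for these 3 genes, and each of the 3 libraries was above both HE libraries. Emr1, which encodes F4/80, was at 32.0, 10.4 and 54.0 FPKM in pre-HSCs, against 0.00993 and 0.15 FPKM in HE. Cx3cr1, the fractalkine receptor, was at 28.5, 7.79 and 47.1 FPKM in pre-HSCs, against 0.378 and 0.504 FPKM in HE. The 6 defining macrophage genes, none at 0 throughout, summed to 491, 163 and 1004 FPKM in pre-HSC replicates 1, 2 and 3, against 4.10 and 5.43 FPKM in HE. Their sum was 2.80 and 3.11 FPKM in Endo, the arterial endothelial cells without Runx1 GFP.

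The whole list, 30 genes, summed to 447 to 2313 FPKM in pre-HSCs and 19.8 to 25.1 FPKM in HE, and 2 of its genes were listed at 0 in every pre-HSC library and 6 in every HE library. Mpo and Prtn3, granulocyte genes on it, did not share the order. Mpo, the azurophil peroxidase, was at 15.9, 22.6 and 21.7 FPKM in pre-HSCs, against 2.32 and 1.86 FPKM in HE (log2 fold change 2.76 ± 0.19, limma adjusted p = 5.5e-05). Prtn3, a serine protease of the same granules, was at 13.3, 15.9 and 17.2 FPKM in pre-HSCs, against 1.26 and 1.36 FPKM in HE (log2 fold change 2.83 ± 0.20, limma adjusted p = 5.5e-05). Timd4, the phosphatidylserine receptor of resident macrophages, was the 1 member not called, at 1.44, 1.55 and 4.39 FPKM in pre-HSCs, against 0 and 0.0572 FPKM in HE.

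The spread between the pre-HSC libraries was measured for every member as the ratio of replicate 3 to replicate 2, each with 1 FPKM added. Its median was 1.005 over all members, 1.22 over the 1023 called higher and 5.32 over the 21 macrophage and granulocyte genes called higher. A ratio of at least 2 was found for 248 of the 1023 (24.2%), against 4.13% of all members, and a ratio of at least 3 for 132 (12.9%), against 1.69%. The order replicate 3, 1, 2 held for 46.8% of the genes called higher and 22.6% of all members. By list, the median ratio of the genes called higher was 4.79 for chemokines and receptors, 2.64 for inflammation and innate sensing, 1.85 for MHC class I, 1.76 for leukocyte signaling, 1.70 for the interferon response, 0.98 for blood transcription factors, 0.94 for megakaryocyte genes and 0.87 for pan-endothelial genes. Sfpi1, the gene of PU.1, a factor of both macrophages and progenitors, was at 56.3, 35.1 and 83.3 FPKM in pre-HSCs, against 4.71 and 2.14 FPKM in HE (log2 fold change 3.72 ± 0.33, limma adjusted p = 0.00014) and shared the order. Cebpb, a myeloid factor, was at 56.9, 28.1 and 120.2 FPKM in pre-HSCs, against 10.3 and 8.02 FPKM in HE (log2 fold change 2.55 ± 0.46, limma adjusted p = 0.0039). Cebpa, the related factor of granulocyte and monocyte progenitors, was at 8.21, 2.71 and 12.9 FPKM in pre-HSCs, against 0.753 and 0.695 FPKM in HE. Both shared the order, and Cebpa lost its call without either HE library (log2 fold change 2.20, limma adjusted p = 0.11 and log2 fold change 2.16, limma adjusted p = 0.076), without pre-HSC replicate 1 (log2 fold change 2.06, limma adjusted p = 0.057) and without pre-HSC replicate 3 (log2 fold change 1.76, limma adjusted p = 0.049). The part of macrophage RNA in the other rises was not tested.

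**Figure D3:**
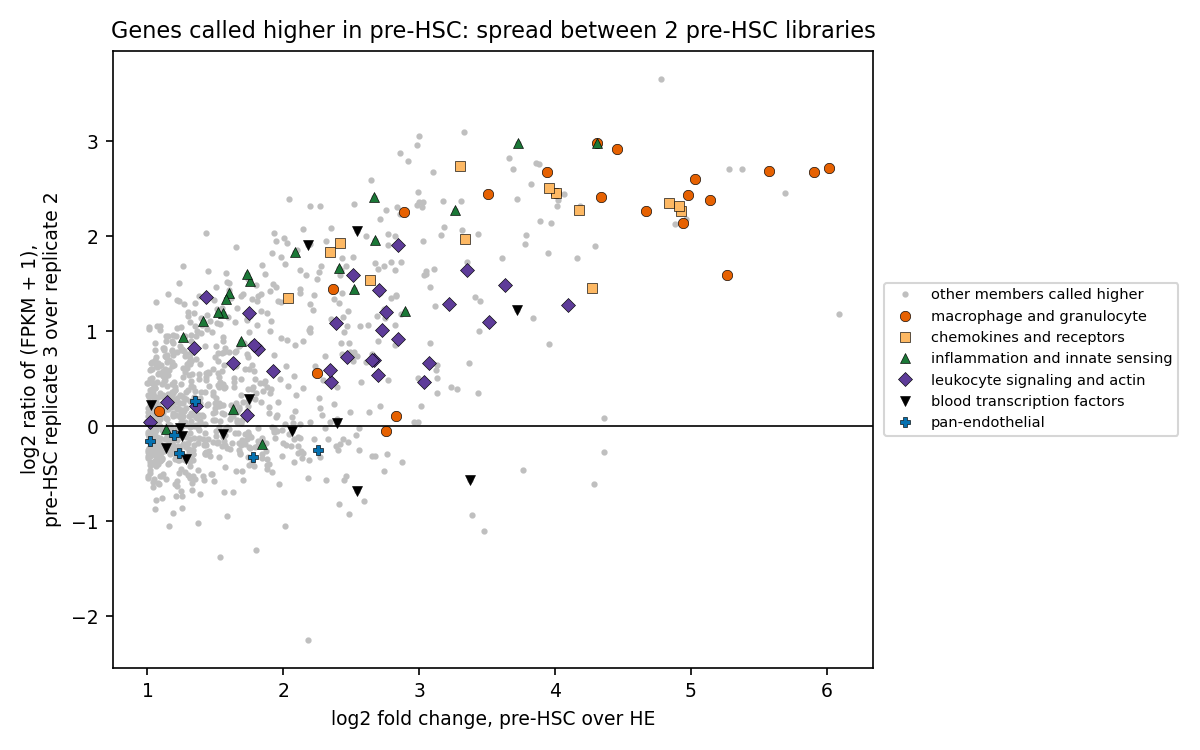
Each point is one of the 1023 genes called higher in pre-HSCs, with its log2 fold change over HE on the x axis and the log2 ratio of pre-HSC replicate 3 to replicate 2, with 1 FPKM added to each, on the y axis. The median ratio on a linear scale was 5.32 for the macrophage and granulocyte genes, 4.79 for chemokines and receptors and 0.87 for pan-endothelial genes, where 1 is equal levels.

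Chemokines and inflammatory genes moved with this order. Of 20 chemokines and receptors 13 were called higher and 2 lower. Those called lower were Cxcl12 and Cxcr4, the ligand and receptor that retain stem cells in their niches. Cxcl12 (log2 fold change -1.44 ± 0.31, limma adjusted p = 0.0088) lost its call without HE replicate 2 (log2 fold change -1.19, limma adjusted p = 0.063). Ccl3 was at 63.7, 18.1 and 96.3 FPKM in pre-HSCs, against 0.267 and 1.35 FPKM in HE (log2 fold change 4.84 ± 0.68, limma adjusted p = 0.0013). Cxcl2, which recruits neutrophils, was at 33.0, 12.5 and 63.7 FPKM in pre-HSCs, against 0.0337 and 0 FPKM in HE (log2 fold change 4.93 ± 0.50, limma adjusted p = 0.00025). Of 36 inflammation and innate sensing genes 21 were called higher and none lower. Il1b was listed at 0 in both HE libraries and was at 13.7, 3.49 and 34.5 FPKM in pre-HSCs, and Tnf was at 13.1, 3.85 and 22.5 FPKM in pre-HSCs, against 0.0815 and 0.378 FPKM in HE (log2 fold change 3.26 ± 0.52, limma adjusted p = 0.0024). Within the same list Birc3, an inhibitor of apoptosis induced by NF-κB, did not follow the order, at 9.64, 12.6 and 10.9 FPKM in pre-HSCs, against 1.91 and 2.82 FPKM in HE (log2 fold change 1.85 ± 0.23, limma adjusted p = 0.00066). With pre-HSC replicate 2 as the only pre-HSC library, a setting chosen after these levels were seen that takes its spread from the other populations and assumes the lone library to vary like them, 12 of 20 chemokine, 10 of 36 inflammation, 17 of 22 macrophage, 28 of 38 leukocyte signaling and 14 of 39 transcription factor genes were called higher, and the macrophage median was 2.90. Leaving out HE replicate 1 alone gave 12 of 36 inflammation genes.

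Promoter letters were searched in the 300-base RefSeq windows (250 bases before the start to 50 after, GRCm38.p6) of the 8032 members with a single annotated start. GAGGAAG, the core of the site that PU.1 binds, on either strand, was in 23.4% of the windows of genes called higher, 9.07% of those called lower and 13.4% of all members, and in 9 of 16 windows of the macrophage and granulocyte list. This motif was added after the levels were seen. TGTGGT, the RUNX core, was in 16.8%, 8.78% and 12.0% in that order, AP-1 (TGANTCA) in 7.79%, 4.82% and 4.12%, the ETS letters CCGGAAG in 7.43%, 5.38% and 18.97%, the GC box GGGCGG in 51.8%, 63.7% and 67.1%, and the MAZ letters GGGAGGG in 29.2%, 38.5% and 28.0%. Over all 22862 RefSeq genes with 1 start, GAGGAAG was in 13.5% of windows, TGTGGT in 17.1%, TGANTCA in 7.98%, CCGGAAG in 9.12%, GGGCGG in 35.2% and GGGAGGG in 20.5%. A match is a description of letters, and the median GC content also differed, at 57.7% for genes called higher, 61.7% for those called lower and 61.3% for all members. The windows of 3 macrophage genes with large rises that hold the letters are printed to show where they sit, in capitals and in each case as CTTCCTC, the reverse strand. They begin 194 bases before the start of C1qc (GRCm38.p6 chr4:136892865-136893164, minus strand), 168 and 36 bases before that of Mrc1 (chr2:14229164-14229463, plus strand) and 41 bases before that of Trem2 (chr17:48346151-48346450, plus strand).
C1qc: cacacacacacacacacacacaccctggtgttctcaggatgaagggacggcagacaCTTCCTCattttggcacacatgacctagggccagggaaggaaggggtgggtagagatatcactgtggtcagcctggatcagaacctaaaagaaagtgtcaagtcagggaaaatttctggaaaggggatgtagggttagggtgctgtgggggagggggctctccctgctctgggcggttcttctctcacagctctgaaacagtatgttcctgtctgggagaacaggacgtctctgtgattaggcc
Mrc1: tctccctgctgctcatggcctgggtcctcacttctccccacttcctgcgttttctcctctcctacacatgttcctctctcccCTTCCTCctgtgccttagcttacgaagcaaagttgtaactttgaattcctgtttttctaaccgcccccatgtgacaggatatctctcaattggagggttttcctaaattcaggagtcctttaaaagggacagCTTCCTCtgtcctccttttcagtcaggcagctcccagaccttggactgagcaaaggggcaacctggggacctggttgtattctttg
Trem2: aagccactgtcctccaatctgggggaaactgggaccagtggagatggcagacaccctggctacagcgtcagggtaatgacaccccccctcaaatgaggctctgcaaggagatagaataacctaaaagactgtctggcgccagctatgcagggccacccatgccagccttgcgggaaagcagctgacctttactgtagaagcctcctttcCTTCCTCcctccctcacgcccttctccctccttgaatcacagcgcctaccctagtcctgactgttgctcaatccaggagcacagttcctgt
C1qc, a further complement chain, was at 122, 40.0 and 263 FPKM in pre-HSCs, against 1.09 and 1.54 FPKM in HE (log2 fold change 5.58 ± 0.88, limma adjusted p = 0.0022). Trem2, a lipid receptor of macrophages, was at 28.8, 6.88 and 58.4 FPKM in pre-HSCs, against 0 and 0.206 FPKM in HE (log2 fold change 4.45 ± 0.82, limma adjusted p = 0.0046). Its call was lost without pre-HSC replicate 1 (log2 fold change 4.30, limma adjusted p = 0.016), where the F test was missed.

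Interferon and MHC class I genes were called higher in 18 of 27 and 8 of 18 cases, with none lower. These lists share genes, among them Psmb8 and Psmb9. Of 3 MHC class II members 1 was called higher and none lower, at a median log2 fold change of -0.19. Irf1, an interferon-induced factor, was at 21.8, 20.8 and 30.5 FPKM in pre-HSCs, against 5.04 and 4.80 FPKM in HE (log2 fold change 2.08 ± 0.21, limma adjusted p = 0.00025). Ifitm1, a restriction factor, was at 54.3, 75.2 and 74.1 FPKM in pre-HSCs, against 25.1 and 25.6 FPKM in HE (log2 fold change 1.37 ± 0.15, limma adjusted p = 0.00033). B2m, the light chain of MHC class I, was at 338, 266 and 498 FPKM in pre-HSCs, against 76.7 and 97.6 FPKM in HE (log2 fold change 2.03 ± 0.24, limma adjusted p = 0.00052). Psmb8, a subunit of the immunoproteasome, was at 11.9, 7.31 and 30.3 FPKM in pre-HSCs, against 0.0977 and 0.0794 FPKM in HE (log2 fold change 3.78 ± 0.44, limma adjusted p = 0.00048). Pre-HSC replicate 3 was more than 2-fold above replicates 1 and 2 for Psmb8, and was not the highest for Ifitm1. Without HE replicate 1 the interferon count was 8 and the MHC class I count 4, and with pre-HSC replicate 2 as the only pre-HSC library they were 10 and 6.

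Of 34 immediate early and stress genes 14 were called higher and none lower. Zfp36, an RNA-decay factor, was at 156, 98.995 and 248 FPKM in pre-HSCs, against 12.2 and 14.9 FPKM in HE (log2 fold change 3.45 ± 0.57, limma adjusted p = 0.0027). Nr4a1, an orphan nuclear receptor, was at 70.6, 65.5 and 88.0 FPKM in pre-HSCs, against 20.0 and 14.95 FPKM in HE (log2 fold change 2.04 ± 0.26, limma adjusted p = 0.00079). Fos (1.59), Jun (0.91), Egr1 (0.90) and Klf2 (0.88), fast transcriptional responders, were not called. Without HE replicate 1 the count was 9, and with pre-HSC replicate 2 as the only pre-HSC library it was 7. Of 22 lipid and purine mediator genes 7 were called higher and none lower. Entpd1, which encodes the ectonucleotidase CD39, was at 107, 101 and 144 FPKM in pre-HSCs, against 11.03 and 13.8 FPKM in HE (log2 fold change 3.13 ± 0.28, limma adjusted p = 0.00014). Alox5ap, the activator of leukotriene synthesis, was at 59.1, 54.1 and 76.2 FPKM in pre-HSCs, against 8.13 and 8.47 FPKM in HE (log2 fold change 2.77 ± 0.15, limma adjusted p = 2.4e-05). Ptgs1, the constitutive cyclooxygenase, was at 43.3, 40.8 and 46.5 FPKM in pre-HSCs, against 8.21 and 8.27 FPKM in HE (log2 fold change 2.27 ± 0.12, limma adjusted p = 1.4e-05). Adrb1, the beta-1 adrenergic receptor, was at 22.1, 18.9 and 19.5 FPKM in pre-HSCs, against 1.83 and 1.61 FPKM in HE (log2 fold change 2.96 ± 0.24, limma adjusted p = 9.3e-05). Every pre-HSC library was above both HE libraries for these 4 genes.

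Some pan-endothelial and venous genes rose and some arterial genes fell, while most genes of these lists were not called. Of 32 pan-endothelial members 6 were called higher (18.8%, against 6.98% over all tested genes) and none lower. Their median log2 fold change was 0.33, and 27 of the 32 were above 0. The summed level of the 8 defining endothelial genes was 2592 to 2907 FPKM in pre-HSCs and 2073 to 2355 FPKM in HE, against 315 to 365 FPKM in fetal liver HSCs. Calcrl (chr2:84170783-84265568, mm9), the receptor core for adrenomedullin and calcitonin gene-related peptide, was at 169.8, 168 and 141 FPKM in pre-HSCs, against 26.9 and 39.5 FPKM in HE (log2 fold change 2.25 ± 0.22, limma adjusted p = 0.00021). Ptprb, the phosphatase VE-PTP that restrains Tie2, was at 34.6, 38.5 and 30.6 FPKM in pre-HSCs, against 8.51 and 10.2 FPKM in HE (log2 fold change 1.78 ± 0.18, limma adjusted p = 0.00028). Tek, which encodes Tie2, was at 101, 117 and 96.1 FPKM in pre-HSCs, against 39.9 and 48.4 FPKM in HE (log2 fold change 1.23 ± 0.19, limma adjusted p = 0.0021). No pre-HSC library of these 3 genes overlapped HE. Vwf, von Willebrand factor, was at 162, 164 and 197 FPKM in pre-HSCs, against 111 and 40.8 FPKM in HE, and its call was lost without HE replicate 2 (log2 fold change 0.64, limma adjusted p = 0.21) and without each pre-HSC library (limma adjusted p = 0.064, 0.06 and 0.072 without replicates 1, 2 and 3).

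Of 19 arterial genes 7 were called lower and none higher, with 4 lower without HE replicate 1, without pre-HSC replicate 1 or with equal totals. Gja4, the connexin 37 of arteries (chr4:126988665-126991283, mm9), was at 19.3, 22.7 and 27.3 FPKM in pre-HSCs, against 165 and 85.9 FPKM in HE (log2 fold change -2.33 ± 0.31, limma adjusted p = 0.00098). Hey1, a Notch target, was at 9.33, 11.1 and 12.2 FPKM in pre-HSCs, against 49.3 and 34.5 FPKM in HE (log2 fold change -1.84 ± 0.26, limma adjusted p = 0.0013). Unc5b, a netrin receptor, was at 10.9, 11.2 and 10.9 FPKM in pre-HSCs, against 40.1 and 34.8 FPKM in HE (log2 fold change -1.68 ± 0.17, limma adjusted p = 0.00021). Dll4, the arterial Notch ligand, was at 10.9, 14.5 and 12.8 FPKM in pre-HSCs, against 38.3 and 26.7 FPKM in HE (log2 fold change -1.27 ± 0.22, limma adjusted p = 0.003). All pre-HSC libraries were below both HE libraries for these 4 genes. Notch4, Jag2 and Cxcr4 were at the edge of the threshold with log2 fold changes of -1.02, -1.001 and -1.10. These 3 calls were lost without HE replicate 1 (log2 fold changes of -0.74, -0.86 and -1.24) and without pre-HSC replicate 1 (-0.96, -0.92 and -1.08). Notch4 and Jag2 also lost theirs without pre-HSC replicate 3 (-0.93 and -0.95), and Cxcr4 without HE replicate 2 (-0.95) or pre-HSC replicate 2 (-0.88). The arterial genes Efnb2 (0.07), Notch1 (0.22), Sox17 (-0.57) and Gja5 (-0.68) were not called.

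Of 10 venous and lymphatic genes 4 were called higher and none lower. Lyve1, the hyaluronan receptor of lymphatic and yolk sac endothelium and of tissue macrophages, was at 39.9, 27.2 and 55.4 FPKM in pre-HSCs, against 2.31 and 3.16 FPKM in HE (log2 fold change 3.44 ± 0.37, limma adjusted p = 0.00033). Stab2, a scavenger receptor of sinusoids, was at 39.4, 47.7 and 31.9 FPKM in pre-HSCs, against 5.02 and 8.002 FPKM in HE (log2 fold change 2.45 ± 0.47, limma adjusted p = 0.0058). Nr2f2, the venous factor COUP-TFII, was at 50.9, 59.1 and 41.0 FPKM in pre-HSCs, against 15.6 and 24.7 FPKM in HE (log2 fold change 1.30 ± 0.26, limma adjusted p = 0.0071). Lyve1 had its highest value in pre-HSC replicate 3, and Stab2 and Nr2f2 had their lowest there. Without HE replicate 1 the count was 1 of 10, with limma's adjusted p at 0.069 for Stab2, 0.063 for Nrp2, a receptor of semaphorins and VEGFC, and 0.087 for Nr2f2.

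**Figure D4:**
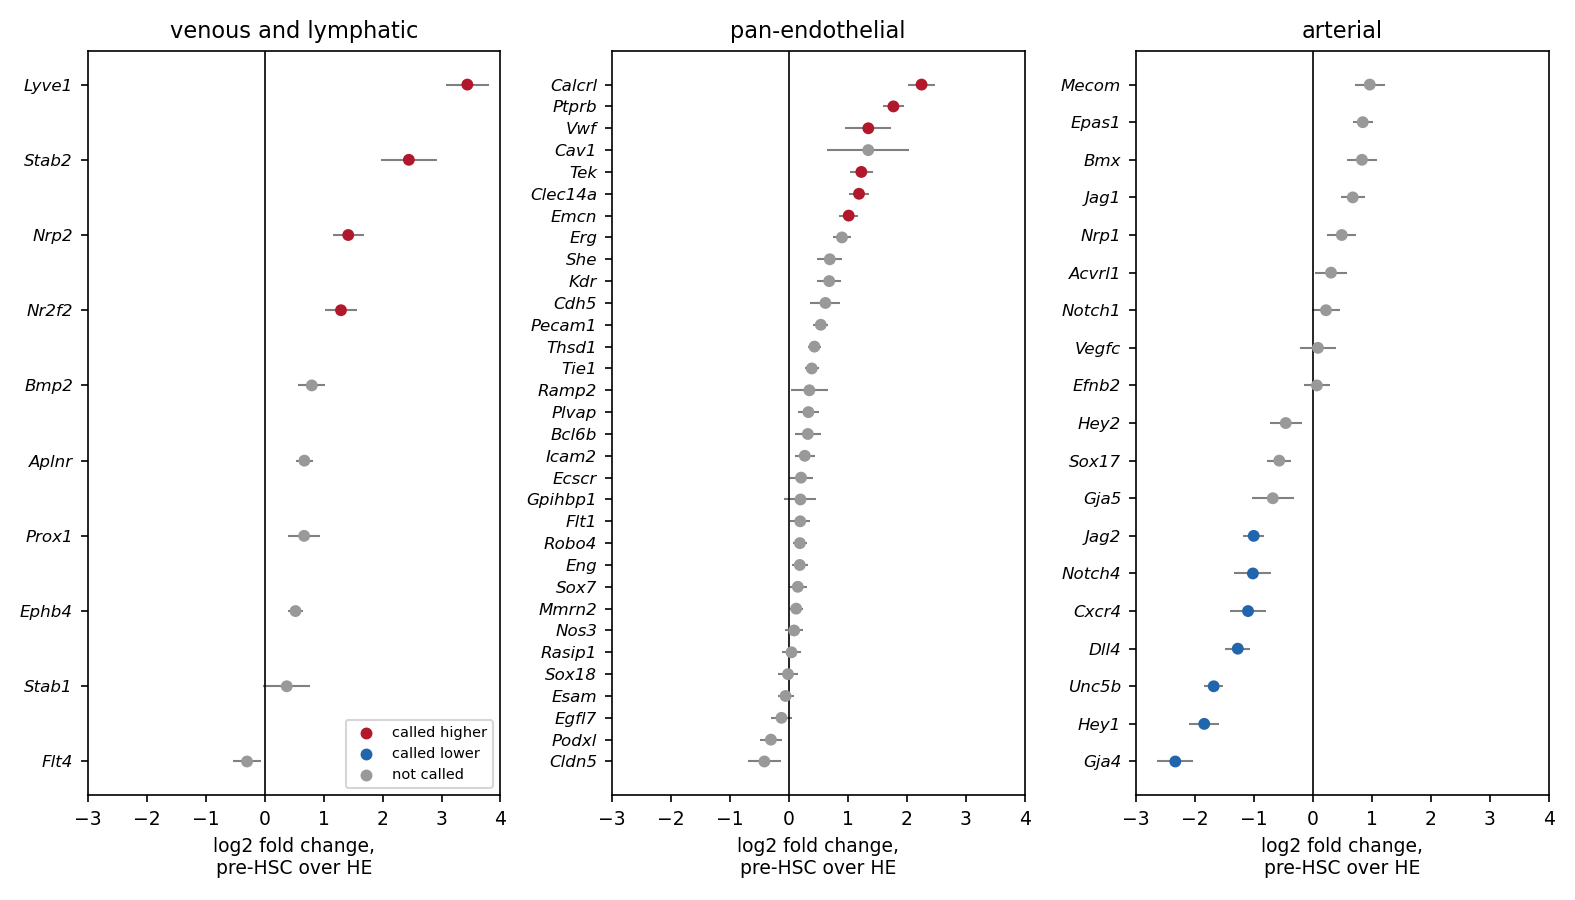
Log2 fold change of pre-HSCs over HE with its standard error for venous and lymphatic (10), pan-endothelial (32) and arterial (19) genes, red where called higher, blue where called lower and gray where not called. The calls lie to the right of 0 in the venous and pan-endothelial panels (4 and 6 genes) and to the left in the arterial panel (7 genes).

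In the Notch pathway 3 of 35 genes were called higher (8.57%) and 7 lower (20.0%), against 6.98% and 4.34% over all tested genes. Without HE replicate 1 none was called higher and 4 lower. With equal totals 4 were lower. Hes5, a Notch target, was at 0.414, 0.228 and 0 FPKM in pre-HSCs, against 6.54 and 4.01 FPKM in HE (log2 fold change -2.35 ± 0.34, limma adjusted p = 0.0014), whereas the ligand Dll1 was at 24.9, 22.2 and 17.2 FPKM in pre-HSCs, against 7.71 and 9.44 FPKM in HE (log2 fold change 1.22 ± 0.28, limma adjusted p = 0.012), a call lost without HE replicate 1 (log2 fold change 1.09, limma adjusted p = 0.11). Notch1 and Hes1, the receptor and target with wide expression, had log2 fold changes of 0.22 and 0.12. Among ligands and receptors of vessels the direction differed within the adrenomedullin system. Adm, the peptide, was at 1.84, 2.57 and 2.60 FPKM in pre-HSCs, against 23.8 and 11.6 FPKM in HE (log2 fold change -2.41 ± 0.37, limma adjusted p = 0.0021), and Ramp3, an accessory protein of its receptor, fell too (log2 fold change -1.73 ± 0.19, limma adjusted p = 0.00033). Calcrl rose, and Ramp2, a further accessory protein, was not called (0.35). Angpt1, the activating Tie2 ligand, was at 7.99, 8.47 and 6.14 FPKM in pre-HSCs, against 1.17 and 1.92 FPKM in HE (log2 fold change 1.75 ± 0.24, limma adjusted p = 0.0013). Angpt2, its antagonist, was not called, at 2.01, 1.99 and 1.61 FPKM in pre-HSCs, against 2.12 and 7.41 FPKM in HE. Pgf, placental growth factor, was at 1.06, 1.03 and 1.49 FPKM in pre-HSCs, against 6.20 and 4.69 FPKM in HE (log2 fold change -1.55 ± 0.21, limma adjusted p = 0.001), and the VEGF receptors Kdr (0.69) and Flt1 (0.20) were not called. Thbd, thrombomodulin, an anticoagulant receptor of endothelium, rose (log2 fold change 1.57 ± 0.23, limma adjusted p = 0.0017).

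Embryonic globins and other erythroid genes fell. Of 26 erythroid members 17 were called lower and none higher, at a median log2 fold change of -1.43. Hbb-bh1 (chr7:110990150-110991678, mm9), an embryonic beta-like globin, was at 131, 192 and 132 FPKM in pre-HSCs, against 2675 and 3625 FPKM in HE (log2 fold change -4.37 ± 0.29, limma adjusted p = 4.9e-05). Hba-x, the embryonic zeta globin, was at 138, 203 and 142 FPKM in pre-HSCs, against 2010 and 2492 FPKM in HE (log2 fold change -3.81 ± 0.44, limma adjusted p = 0.00045). Hbb-y, the epsilon globin, was at 501, 663 and 601 FPKM in pre-HSCs, against 3951 and 5109 FPKM in HE (log2 fold change -2.94 ± 0.60, limma adjusted p = 0.0075), whose call was lost without HE replicate 1 (log2 fold change -3.13, limma adjusted p = 0.05). Pre-HSC replicate 2 was the highest of its group and HE replicate 2 of its own for these 3 globins. Alas2, the first enzyme of heme synthesis in erythroid cells, was at 2.43, 2.16 and 1.71 FPKM in pre-HSCs, against 19.9 and 25.4 FPKM in HE (log2 fold change -2.93 ± 0.25, limma adjusted p = 0.0001). Slc4a1, the anion exchanger band 3, was at 2.73, 3.54 and 2.41 FPKM in pre-HSCs, against 16.3 and 25.1 FPKM in HE (log2 fold change -2.46 ± 0.43, limma adjusted p = 0.0037). Klf1 was at 0.837, 0.757 and 0.873 FPKM in pre-HSCs, against 4.34 and 9.06 FPKM in HE (log2 fold change -2.01 ± 0.36, limma adjusted p = 0.0041). The whole list of 29 genes summed to 953 to 1281 FPKM in pre-HSCs and 9413 to 12236 FPKM in HE. In Endo the sum was 8606 to 9214 FPKM, and 1 gene was listed at 0 in every pre-HSC library. The adult beta globins Hbb-b1 (0.17) and Hbb-b2 (0.79) were not called, and Hba-a1 and Hba-a2, which share near-identical sequence, are uncertain. With pre-HSC replicate 2 as the only pre-HSC library 6 of the 26 were called lower.

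AGATAA, the GATA core, was in 7 of 16 windows of the erythroid list, 9.78% of the windows of genes called higher, 9.07% of those called lower, 5.96% of all members and 11.5% of all RefSeq genes with 1 start. The 2 erythroid genes with the largest falls whose windows hold it are shown with the letters in capitals, as TTATCT, which begin 86 bases before the start of Alas2 (GRCm38.p6 chrX:150547167-150547466, plus strand) and 163 bases before that of Trim10 (chr17:36869324-36869623, plus strand).
Alas2: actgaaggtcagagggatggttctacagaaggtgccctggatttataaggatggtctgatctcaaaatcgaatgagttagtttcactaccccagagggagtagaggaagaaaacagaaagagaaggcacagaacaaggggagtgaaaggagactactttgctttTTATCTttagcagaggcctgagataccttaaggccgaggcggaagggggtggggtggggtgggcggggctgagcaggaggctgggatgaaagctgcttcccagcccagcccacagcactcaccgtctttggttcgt
Trim10: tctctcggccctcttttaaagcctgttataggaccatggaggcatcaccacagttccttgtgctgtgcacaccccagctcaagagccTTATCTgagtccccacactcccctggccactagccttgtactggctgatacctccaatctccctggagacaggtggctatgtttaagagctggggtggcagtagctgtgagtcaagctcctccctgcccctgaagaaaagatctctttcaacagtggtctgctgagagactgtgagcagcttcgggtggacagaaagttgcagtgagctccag
Trim10, a gene of terminal erythroid differentiation, was at 0.618, 0.483 and 0.633 FPKM in pre-HSCs, against 3.22 and 3.77 FPKM in HE (log2 fold change -1.51 ± 0.30, limma adjusted p = 0.0065).

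Epithelial genes were called lower in 16 of 20 cases, and in 3 of 20 without HE replicate 1, with none higher. Krt8 (chr15:101827142-101834773, mm9), a simple epithelial keratin, was at 16.1, 8.03 and 10.2 FPKM in pre-HSCs, against 233 and 112 FPKM in HE (log2 fold change -3.76 ± 0.49, limma adjusted p = 0.00092). Upk3b, a mesothelial surface protein, was at 3.88, 1.21 and 2.42 FPKM in pre-HSCs, against 38.2 and 23.3 FPKM in HE (log2 fold change -3.21 ± 0.49, limma adjusted p = 0.0019). Krt18, the partner of Krt8, was at 16.7, 14.3 and 14.8 FPKM in pre-HSCs, against 152 and 70.5 FPKM in HE (log2 fold change -2.69 ± 0.45, limma adjusted p = 0.0029). E-cadherin, Cdh1, was at 2.48, 0.941 and 1.86 FPKM in pre-HSCs, against 10.3 and 6.25 FPKM in HE (log2 fold change -1.76 ± 0.39, limma adjusted p = 0.01). HE replicate 1 was above HE replicate 2 for these 4 genes, with a median ratio of 1.83 over the 16 genes, against 1.12 over all genes called lower and 0.97 over all members. Without HE replicate 1 neither Krt18 (log2 fold change -2.14, limma adjusted p = 0.043) nor Cdh1 (log2 fold change -1.44, limma adjusted p = 0.11) was called. All 28 listed epithelial genes summed to 68.6 to 117 FPKM in pre-HSCs, 378 to 754 FPKM in HE and 91.7 to 271 FPKM in Endo, and the part of other cells in these levels was not tested.

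Contractile genes were called lower in 8 of 25 cases, with none higher. Acta2 (chr19:34315580-34329826, mm9), smooth muscle alpha-actin, was at 87.2, 50.2 and 60.8 FPKM in pre-HSCs, against 303 and 284 FPKM in HE (log2 fold change -2.17 ± 0.20, limma adjusted p = 0.00016). Tagln, the actin-binding SM22, was at 36.4, 20.5 and 30.3 FPKM in pre-HSCs, against 172 and 159 FPKM in HE (log2 fold change -2.51 ± 0.23, limma adjusted p = 0.00016). Actc1, cardiac alpha-actin, was at 23.3, 7.85 and 9.95 FPKM in pre-HSCs, against 75.0 and 102 FPKM in HE (log2 fold change -2.73 ± 0.36, limma adjusted p = 0.00097). No library overlapped, pre-HSC replicate 1 was the highest of its group for each, and without 1 library the count was 7 to 9. The regulator Srf (-0.42) and late smooth muscle myosin Myh11 (-0.51) were not called. Of 24 mural and mesenchymal members 13 were called lower, among them the transcription factor Meox1 (log2 fold change -2.21 ± 0.23, limma adjusted p = 0.00027). Twist1, a factor of mesenchyme, was at 15.4, 8.73 and 9.74 FPKM in pre-HSCs, against 43.8 and 43.1 FPKM in HE (log2 fold change -1.89 ± 0.28, limma adjusted p = 0.0017). Hand1, a factor of lateral mesoderm, was at 7.68, 3.26 and 4.58 FPKM in pre-HSCs, against 58.8 and 40.5 FPKM in HE (log2 fold change -3.08 ± 0.52, limma adjusted p = 0.0031). Dlk1, a delta-like membrane protein, was at 162, 111 and 103 FPKM in pre-HSCs, against 597 and 518 FPKM in HE (log2 fold change -2.17 ± 0.36, limma adjusted p = 0.0028). The count was 6 without HE replicate 1 and 6 without HE replicate 2, 7 without pre-HSC replicate 2 and 8 without pre-HSC replicate 3. Pdgfra and Dcn, which define fibroblasts, were not called, and their values overlapped between the populations. Pdgfra was at 6.57, 3.54 and 3.88 FPKM in pre-HSCs, against 5.65 and 9.06 FPKM in HE. Dcn was at 20.2, 8.78 and 13.5 FPKM in pre-HSCs, against 19.7 and 26.7 FPKM in HE.

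Of 56 matrix genes 5 were called higher and 5 lower, 8.93% in each direction, against 6.98% higher and 4.34% lower over all tested genes. Without HE replicate 1 the counts were 3 and 2, and without pre-HSC replicate 3 they were 5 and 3. Eln, elastin, was at 33.1, 30.5 and 51.5 FPKM in pre-HSCs, against 5.59 and 5.90 FPKM in HE (log2 fold change 2.51 ± 0.23, limma adjusted p = 0.00016). Col13a1, a transmembrane collagen, was at 17.9, 16.8 and 15.3 FPKM in pre-HSCs, against 3.23 and 4.72 FPKM in HE (log2 fold change 1.84 ± 0.21, limma adjusted p = 0.00046). Igfbp2, a binding protein of insulin-like growth factors, was at 51.2, 39.8 and 48.6 FPKM in pre-HSCs, against 601 and 234 FPKM in HE (log2 fold change -2.99 ± 0.35, limma adjusted p = 0.0005). Fbln1, fibulin 1, was at 36.8, 27.9 and 32.4 FPKM in pre-HSCs, against 87.8 and 81.1 FPKM in HE (log2 fold change -1.36 ± 0.16, limma adjusted p = 0.00046). The basement membrane genes Col4a1 (0.09), Lamc1 (-0.05) and Nid1 (0.07) were not called.

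Signaling and patterning genes of the embryo were lower in several families. In the Wnt list 12 of 35 were called lower and 1 higher. Wnt6, a ligand, was at 2.08, 0.88 and 1.14 FPKM in pre-HSCs, against 36.5 and 11.9 FPKM in HE (log2 fold change -3.25 ± 0.52, limma adjusted p = 0.0024). Fzd10, a receptor, was at 5.49, 6.45 and 4.28 FPKM in pre-HSCs, against 35.2 and 32.3 FPKM in HE (log2 fold change -2.45 ± 0.18, limma adjusted p = 6.5e-05). Axin2 and Nkd1 are feedback inhibitors and common readouts of the pathway. Axin2 was at 3.43, 2.74 and 1.96 FPKM in pre-HSCs, against 10.98 and 11.1 FPKM in HE (log2 fold change -1.72 ± 0.25, limma adjusted p = 0.0016), and Nkd1 fell too (log2 fold change -2.12 ± 0.19, limma adjusted p = 0.00013). The gene called higher was the receptor Fzd4 (log2 fold change 1.10 ± 0.28, limma adjusted p = 0.018), a call lost without HE replicate 1 (log2 fold change 0.85, limma adjusted p = 0.17) or pre-HSC replicate 2 (log2 fold change 1.02, limma adjusted p = 0.055). Ctnnb1, the gene of beta-catenin, was not called (0.34). Of 15 retinoic acid genes 5 were called lower and 1 higher, Dhrs3, a retinal reductase, whose call was lost without HE replicate 1 (log2 fold change 1.15, limma adjusted p = 0.051) or pre-HSC replicate 3 (log2 fold change 0.93, limma adjusted p = 0.016). Crabp1 (chr9:54612555-54620917, mm9), a cellular retinoic acid binding protein, was at 23.2, 10.5 and 16.9 FPKM in pre-HSCs, against 216 and 141 FPKM in HE (log2 fold change -3.36 ± 0.28, limma adjusted p = 0.0001). Crabp2, its relative, was at 16.0, 7.82 and 10.8 FPKM in pre-HSCs, against 133 and 104 FPKM in HE (log2 fold change -3.30 ± 0.25, limma adjusted p = 6.5e-05). The receptors Rara (0.08), Rarb (0.28) and Rxra (0.33) were not called.

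Among 34 Hox genes 12 were called lower and 1 higher, with clusters B, C and D holding those called lower. Hoxc4 was at 2.98, 1.89 and 2.06 FPKM in pre-HSCs, against 13.7 and 11.2 FPKM in HE (log2 fold change -2.03 ± 0.28, limma adjusted p = 0.0012). Hoxb8 was at 13.2, 10.8 and 9.70 FPKM in pre-HSCs, against 34.7 and 30.6 FPKM in HE (log2 fold change -1.47 ± 0.25, limma adjusted p = 0.0029). Hoxa9, which supports HSC expansion, was the gene called higher, at 42.6, 50.4 and 42.9 FPKM in pre-HSCs, against 17.9 and 22.5 FPKM in HE (log2 fold change 1.13 ± 0.17, limma adjusted p = 0.0019). That call was lost without HE replicate 1 (log2 fold change 0.97, limma adjusted p = 0.029). Its neighbors Hoxa10 (0.86), Hoxa7 (0.13) and Hoxa5 (0.68) were not called. Neural genes were called lower in 14 of 23 cases and higher in 2. Sox2, a factor of neural progenitors, was at 1.12, 0.587 and 0.514 FPKM in pre-HSCs, against 7.14 and 9.38 FPKM in HE (log2 fold change -2.42 ± 0.22, limma adjusted p = 0.00016). Zic2, a factor of the dorsal neural tube, was at 1.57, 1.53 and 1.78 FPKM in pre-HSCs, against 7.22 and 9.28 FPKM in HE (log2 fold change -1.81 ± 0.19, limma adjusted p = 0.00027). The genes called higher were Ednrb and Stmn2. Ednrb, the endothelin B receptor, was at 50.6, 47.5 and 55.2 FPKM in pre-HSCs, against 6.66 and 7.22 FPKM in HE (log2 fold change 2.71 ± 0.19, limma adjusted p = 5.5e-05). Stmn2, a microtubule regulator, was at 64.8, 67.7 and 75.5 FPKM in pre-HSCs, against 21.6 and 18.7 FPKM in HE (log2 fold change 1.73 ± 0.25, limma adjusted p = 0.0015). Of 21 listed germ cell and pluripotency genes 11 passed the filter. Of these, 8 were called lower (72.7%, against 4.34% over all tested genes) and none higher. A gene could pass through the HE libraries alone, so the filter itself favors a high share of lower calls. Lin28a, the let-7 antagonist of early embryonic cells, was at 1.29, 0.957 and 1.59 FPKM in pre-HSCs, against 21.8 and 16.3 FPKM in HE (log2 fold change -3.13 ± 0.32, limma adjusted p = 0.00025). Dppa5a was listed at 0 in all pre-HSC libraries, against 13.0 and 8.08 FPKM in HE. Among 5 germ cell markers Pou5f1 and Dppa3 were called lower. Pou5f1 was at 0.0831, 0 and 4.23 FPKM in pre-HSCs, against 5.80 and 5.87 FPKM in HE. Dppa3 was at 0.341, 0.368 and 0.216 FPKM in pre-HSCs, against 5.98 and 3.27 FPKM in HE. The markers Nanog, Ddx4 and Dazl were under 1 FPKM in every pre-HSC and HE library.

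**Figure D5:**
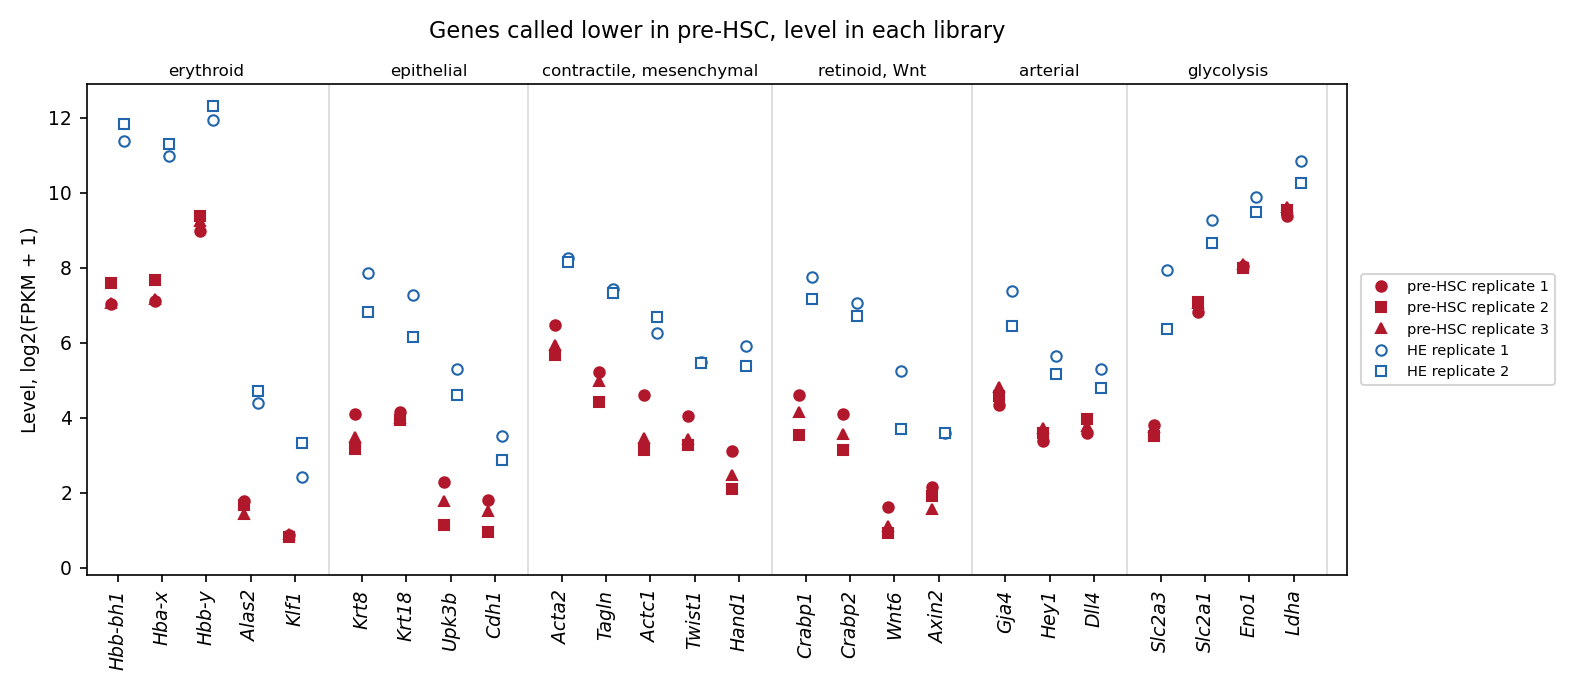
Level of genes called lower in pre-HSCs as log2(FPKM + 1) in each library, pre-HSC replicates 1 to 3 as filled red symbols left of HE replicates 1 and 2 as open blue symbols. Every pre-HSC symbol is below both HE symbols of its gene, as for Hbb-bh1 at 131, 192 and 132 FPKM in pre-HSCs, against 2675 and 3625 FPKM in HE.

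Several glycolysis genes fell. Of 26 members 10 were called lower and none higher, at a median log2 fold change of -0.79 against 0.09 over all members. Slc2a1, the glucose transporter GLUT1, was at 112, 133 and 132 FPKM in pre-HSCs, against 614 and 402 FPKM in HE (log2 fold change -1.98 ± 0.18, limma adjusted p = 0.00014). Eno1, an enolase, was at 261, 254 and 271 FPKM in pre-HSCs, against 939.6 and 720.2 FPKM in HE (log2 fold change -1.65 ± 0.18, limma adjusted p = 0.00033). Pkm2, pyruvate kinase, was at 518, 556 and 565 FPKM in pre-HSCs, against 1755 and 1260 FPKM in HE (log2 fold change -1.44 ± 0.18, limma adjusted p = 0.00064). Slc16a3, a lactate exporter, was at 33.2, 38.4 and 34.1 FPKM in pre-HSCs, against 189 and 120.3 FPKM in HE (log2 fold change -2.07 ± 0.26, limma adjusted p = 0.00066). HE replicate 1 was above HE replicate 2 in each of these 4 genes. Slc2a3, the transporter GLUT3, was at 12.9, 10.3 and 12.4 FPKM in pre-HSCs, against 244 and 80.7 FPKM in HE (log2 fold change -3.46 ± 0.57, limma adjusted p = 0.0027). Its call was lost without HE replicate 1 (log2 fold change -2.67) and without pre-HSC replicate 1, 2 or 3 (-3.52, -3.38 and -3.50). The count of the list was 4 without HE replicate 1, 7 without pre-HSC replicate 1, and 5 with equal totals. Gapdh (-0.39), Hk1 (0.06), Hk2 (-0.57) and Vegfa (-0.38) were not called.

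DNA replication and mitosis genes were called no more often than all tested genes, of which 6.98% were called higher and 4.34% lower. None of 29 DNA replication genes was called by limma, while 12 were lower and 1 higher at an unadjusted p under 0.05. Of 26 mitosis genes 1 was called lower (3.85%), Plk1. That call was lost without HE replicate 1 (log2 fold change -0.81, limma adjusted p = 0.077) or pre-HSC replicate 2 (log2 fold change -0.96, limma adjusted p = 0.02). Pcna, the replication clamp, was at 257, 261 and 270.2 FPKM in pre-HSCs, against 306 and 313 FPKM in HE. Mki67, a marker of cycling cells, was at 28.1, 27.0 and 22.1 FPKM in pre-HSCs, against 19.8 and 26.1 FPKM in HE. The groups overlapped for Mki67 and not for Pcna. Of 29 oxidative phosphorylation genes 2 were called lower, Cycs and Uqcrq (6.90%, against 4.34% over all tested genes). None was called without HE replicate 1 (log2 fold changes of -1.02 and -1.01) or without pre-HSC replicate 1 (-0.83 and -1.07). Ccnd1, a G1 cyclin, was at 60.8, 69.4 and 63.5 FPKM in pre-HSCs, against 61.9 and 63.3 FPKM in HE, and its values overlapped between the populations.

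Some large changes lie in genes whose counting is uncertain. Of 340 pseudogene members 44 were called higher (12.9%) and 18 lower (5.29%), against 6.98% and 4.34% over all tested genes. The pseudogene Rps2-ps13 was at 0.597, 0.248 and 0.599 FPKM in pre-HSCs, against 133 and 77.3 FPKM in HE. Gm13394, a further one, was at 0.906, 0.971 and 0.816 FPKM in pre-HSCs, against 145 and 111 FPKM in HE. Both were at 30.6 FPKM or more in every library of Endo, fetal liver HSCs and bone marrow HSCs. Their low levels were thus seen in the pre-HSC libraries only, as were those of Gm10260, Rps26-ps1 and Gm11361. Whether the pre-HSC libraries were made or mapped differently was not tested. Of the 87 ribosomal protein genes 85 were not called, though 76 were below 0. Their median log2 fold change was -0.40, against 0.09 over all members. At limma's unadjusted p under 0.05, 21 were lower and 3 higher. The beta-globin pseudogene Hbb-bh0 was listed at 0 in pre-HSC replicates 1 and 3, at 385 FPKM in replicate 2, and at 879 and 1272 FPKM in HE. By the study's methods, reads that map to several places were discarded. Levels of such near-identical copies are uncertain, and no direction is drawn from them. Values of exactly 0 are read only as listed at 0. Prpf8, a core spliceosome gene used in every cell, had 54.1 and 52.3 FPKM in pre-HSC replicates 1 and 2, and was listed at 0 in replicate 3.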

How the data were processed

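Poly(A) RNA of sorted cells was sequenced in paired ends. Per the study's methods, the authors used TopHat and mm9, discarded reads that mapped to several places or with more than a single mismatch, and assigned the rest to Ensembl genes. The deposited FPKM table holds 1 column per library. Cufflinks, featureCounts of Subread and edgeR also appear in the submitters' processing notes, without a statement of which of them produced the FPKM. Depth is unknown, and FPKM totals were 569851 to 693418 in the 5 libraries compared.

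Genes with 1 FPKM in at least 2 of all 11 libraries (14708) were fitted as log2(FPKM + 1) with limma 3.58.1 (R 4.3.3; lmFit, eBayes with trend), computed from the deposited FPKM values, with groups from the labels and Benjamini-Hochberg adjustment. FPKM values are not counts, so no count model was run. Equal replicate numbers were not shown to pair the libraries. The fit was tested on simulated data. Tables and figures used Python 3.11.15, pandas 2.3.3 and matplotlib 3.10.9.

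The members and the 48 gene lists were chosen with earlier results of these data known. The text names genes that the study names, sort genes, the 25 largest calls in each direction at a mean of 10 FPKM or more without overlap, up to 8 called members per list, and list members that were not called. Further called list members (Btk, Sykb, Ptpn6, Lcp2, Gpr56, Selplg, Flt3, Clec1b, Mpo, Prtn3, Birc3, Ifitm1, Slc4a1, Trim10, Cdh1, Fzd4, Hoxa9, Cxcl12, Gata1), Prpf8 and the pseudogenes were chosen after their values were seen. Promoters and their letters came from RefSeq, GRCm38.p6, where 13056 of 13525 members matched. Gene positions are on mm9. Alternatives changed the pseudocount, filter, scaling, libraries, thresholds and replicate block. Items withheld from the files are not analysed here.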

Additional observations from a re-analysis of the deposited data

How the results depend on the processing

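The counts of genes called, 1026 higher and 639 lower in pre-HSCs, stayed within 1.5 times under each of the 16 other settings listed in the methods except without HE replicate 1, and 208 of the 293 named genes kept call and direction under all 16. Leaving out 1 library gave 624 to 1126 higher and 389 to 674 lower, the lowest of both without HE replicate 1. With pre-HSC replicate 2 as the only pre-HSC library, a setting chosen after seeing the data, 561 were higher and 431 lower, and 897 of the 1665 calls were kept. The cause was not tested, beyond fewer libraries. The log2 fold change of Esam, which was not called, changed sign to 0.21 with quantile normalization, 0.11 with equal totals and 0.037 with pre-HSC replicate 2 alone, and leaving out 1 library gave -0.16 to 0.055.

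With the replicate number as a block, 958 genes were higher and 580 lower, and 1387 of the 1665 calls were kept. The deviations of same-numbered libraries correlated at -0.049 and 0.076. With 2 HE libraries the HE deviations mirror each other, so these values cannot show whether same-numbered libraries were handled together. Without read counts, the smallest difference that these libraries could show was not measured. Where a setting left 1 library of a population, that library was assumed to vary like the others.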
